A study of Schizocosa ocreata with 10 samples.

Results

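Axon guidance and neural adhesion genes were examined in the brain of the wolf spider Schizocosa ocreata. A gene was included when the fly symbol at the end of its name in the annotation was that of a guidance receptor (robo1, robo2, robo3, fra, unc-5, PlexA, PlexB, Eph), a guidance ligand (sli, NetA, NetB, Sema1a, Sema1b, Sema2a, Sema2b, Sema5c, Ephrin), an adhesion molecule of the immunoglobulin type or its phosphatase relative (Dscam1, Dscam2, Dscam3, Dscam4, Fas2, Fas3, Nrg, Cont, Lar), a synaptic partner molecule (Nrx-1, Nlg1, Nlg2, Nlg3, Nlg4, Ten-a, Ten-m) or a classical cadherin (CadN, CadN2). The rule found 204 genes, all with counts, among 25943 annotated genes, of which 25922 had counts. Of its 35 symbols, 29 were found, and no gene was named CadN2, Dscam3, Fas3, Nlg2, Sema1b or Sema2b. There were 38 guidance receptors, 19 guidance ligands, 109 immunoglobulin adhesion genes, 33 synaptic partner genes and 5 cadherins.

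Guidance ligands are cues that a growing axon meets, either secreted, as Slit and the Netrins are, or held on a cell surface, as Ephrin and some Semaphorins are. Receptors on the growth cone read them: Robo proteins bind Slit, Frazzled and Unc-5 bind Netrins, Plexins bind Semaphorins, and Eph binds Ephrin. Adhesion molecules hold neurites and synapses together, and in Drosophila the many isoforms of Dscam1 let the neurites of a neuron recognise and avoid each other. In chelicerates, the group that holds the spiders, an enlarged set of Dscam genes with shortened members is known.

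The 10 libraries were made from polyadenylated RNA of the dissected brains of single field-collected spiders, of which 5 were immature (2 females and 3 males) and 5 mature (3 females and 2 males). The study left out 1 further library each of immature females and mature males for low coverage, and these were not analysed here. Mature spiders had molted to maturity 24 hours before dissection. Immature spiders were subadults whose time to the next molt was unknown and whose age was not standardized. The dissected tissue could include parts of the esophagus, which runs through the brain. No genotype or treatment was given for any group.

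Totals were between 3481348 and 11789754 counts per library. Genes named for 13 neuronal markers (41 genes, none at 0 in any library) held 0.305% to 0.732% of the counts, whereas the marker elav was not matched by name. Genes for 14 muscle markers (42 genes, none at 0) held 7.4% to 16.6%. Immature female 2, immature male 1 and immature male 3 stood apart from the rest, with 0.108%, 0.112% and 0.145% of counts on 12 genes of the molting hormone response against 0.0204% to 0.033% in the other 7 libraries. Their levels of Gene001811, named for the hormone receptor Hr4, were 143, 505 and 668 CPM (the usual unit of counts scaled to library size, here with edgeR's TMM factors) against 1.34 to 5.13 CPM elsewhere. Because whole tissue was sequenced, fewer cells of a type and less RNA per cell cannot be told apart in any value given here.

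Many members were short, in a transcriptome assembled without a genome. Their coding lengths ran from 297 to 7323 bases with a median of 744, against 480 for all counted genes. Of the 204, 83 were shorter than 600 bases and the longest was Gene011020 (Ten-m). Of all 204, 66 overlapped the coding sequence of another gene on the same contig, none of them that of another member. How reads on a shared stretch were assigned, and whether strand was used, is not given in the sources used here, so the counts of these 66 are uncertain. Of the genes described here, Gene002222, Gene004001, Gene006433, Gene006595, Gene006741, Gene008937, Gene009984, Gene010936, Gene011020, Gene011363, Gene014332, Gene016053, Gene017967, Gene018317, Gene021743 and Gene022478 are among them.

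The fly name was borne out by the annotated protein match for most but not all members. The best Swiss-Prot match, a curated protein from any species, belonged to the family of the fly symbol in 171 of 204 members (83.8%), to another family in 25, and was missing in 8. Identity to the listed fly protein lay between 24.1% and 69.94% with a median of 40.31%. Only 2 of 6 robo1 genes, 2 of 5 sli genes, 3 of 8 Lar genes and 1 of 3 Ten-a genes had a match of their own family. Gene006595 (Ten-m), Gene005235 (Lar) and Gene016053 (Dscam4) carried a symbol but neither a listed fly alignment nor a Swiss-Prot match nor a Pfam domain, and Gene015339 (Dscam4) lacked the fly alignment.

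Domain content was not used by the rule, but it was read from the same sequences as the names. It followed some families more than others. Of the 93 Dscam genes, 63 had an immunoglobulin domain, 46 a fibronectin type III domain and 24 both, while 8 had no Pfam domain. All 6 neurexin genes had a laminin G domain and all 4 netrin genes a laminin EGF domain. All 5 sli genes had a leucine-rich repeat, although only 2 of 5 had a Swiss-Prot match of their own family. An immunoglobulin domain was listed for 1 of 6 Unc-5 genes and 1 of 8 Lar genes. The carboxylesterase fold that neuroligins share was present in 8 of 12 neuroligin genes, and the Sema domain in 9 of 13 plexin genes and 5 of 8 semaphorin genes. Only 3 of 15 teneurin genes had the Tox-GHH domain of the teneurin end, and 8 had no Pfam domain. A signal peptide was predicted in 39 members.

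The symbol Dscam1 was on 64 genes, Dscam4 on 22 and Dscam2 on 7. As many as 30 of the 64 Dscam1 genes aligned over the same residue of fly Dscam1. The members were not aligned to each other, so how many separate spider genes these are was not determined. For Ten-m, in contrast, 11 aligned genes covered 2883 residues of the fly protein with at most 4 on any residue. For PlexA, 9 genes covered 1891 residues with at most 6. A different fly isoform could be the listed match of each gene, so these residue positions are approximate.

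All members were detected, but at widely different levels. Levels are compared between genes as CPM per kilobase of coding length, averaged over the 10 libraries. They lay between 0.988 and 474 CPM per kb, and the median of the 203 tested members, 6.31, was below the median of 10 for all 24930 genes tested. Members were longer than other genes, however (median 744 against 480 bases for all counted genes), and the filter acted on counts, not on counts per kilobase. The part of length and filter in this difference was not tested, so it does not show that members are expressed below the typical gene. No library had 0 counts for 201 members, and the other 3 had 0 in a single library each. Gene022478 (NetA), the only member that did not pass the filter on low counts, had 1 to 8 counts per library.

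**Figure D1:**
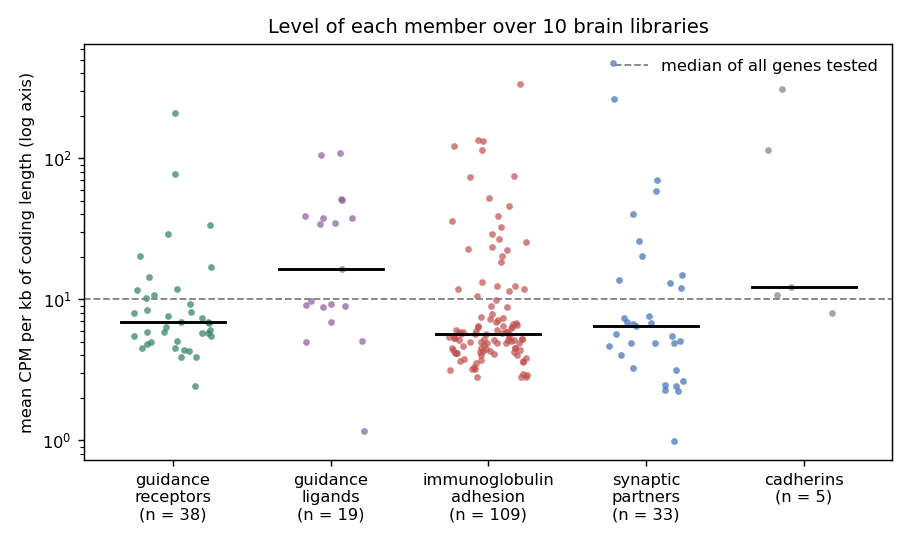
Mean level of each of the 204 members over the 10 libraries, in CPM per kb of coding length on a log axis, by role. Each point is a gene, black bars are role medians and the dashed line is the median of all genes tested. The bars of receptors (6.87), immunoglobulin adhesion genes (5.68) and synaptic partners (6.42) lie below that line, those of ligands (16.4) and cadherins (12.3) above it, and every role has a gene above 100.

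Among guidance receptors the median was 6.87 CPM per kb. Gene020427 (PlexA), a 477-base piece with a Sema domain and the best match Plexin-A4, was the highest at 210 CPM per kb. Its libraries, in the order immature female 2 and 3, immature male 1 to 3, mature female 1 to 3 and mature male 2 and 3, which is kept below, stood at 135, 109.6, 115, 56.1, 115, 96.7, 87.9, 126, 82.6 and 78.0 CPM. Immature male 2 was the lowest and immature female 2 the highest, and the groups overlapped. Gene019867 (robo1) was second at 77.5 CPM per kb, but its best Swiss-Prot match was Follistatin-related protein 5, so its name as a Slit receptor is doubtful. Gene019867 stood at 71.8, 222, 94.2, 131, 99.2, 105, 240.1, 308, 158 and 161 CPM, highest in mature female 3 and lowest in immature female 2.

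Guidance ligands had the highest role median, 16.4 CPM per kb over 19 genes, next to 12.3 for the 5 cadherins. Semaphorins led, with Gene003718 (Sema1a, a membrane-bound Semaphorin) at 109 and Gene006380 (Sema5c) at 106 CPM per kb. Gene003718 was even across spiders, at 208, 198, 183, 223, 217, 215, 233, 289.6, 215 and 251 CPM. Gene006380 ranged over 37.7, 27.2, 31.6, 43.8, 30.5, 39.9, 37.5, 35.0, 45.0 and 34.6 CPM. Neither separated a stage or a sex. Netrins, by contrast, were low, between 1.16 and 9.14 CPM per kb.

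Immunoglobulin adhesion genes held 44.5% of the summed mean CPM of the members, although their median was only 5.68 CPM per kb. The 93 Dscam genes had a median of 5.24 CPM per kb and held 18.5%, whereas 2 Fas2 genes (the fly counterpart of the vertebrate neural cell adhesion molecule) held 8.6% and 4 Nrg genes 8.54%. Gene000582 (Nrg, Neuroglian, the fly L1-type adhesion molecule), a 909-base piece with the Bravo_FIGEY domain of the cytoplasmic end, had 335 CPM per kb. Gene000582 stood at 228, 358, 244, 279, 269.7, 214, 356, 498, 279 and 318 CPM. Mature female 3 was above, and mature female 1 below, every other library for this gene. Gene006433 was the highest Dscam gene, at 134 CPM per kb, and varied little between spiders, at 80.1, 116, 97.8, 78.0, 114, 81.4, 86.7, 104.3, 90.2 and 94.9 CPM.

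Synaptic partner genes included both the highest member and the lowest. Gene006402 (Ten-m, best match Teneurin-2), a 447-base piece with EGF domains, had 474 CPM per kb and was among the steadiest members, at 180.3, 202, 237, 193, 202, 222, 215, 229, 234 and 206 CPM. Gene006595 (Ten-m) came next at 262 CPM per kb and is described below. The lowest was Gene023785 (Ten-a) at 0.988 CPM per kb. Neurexin, the presynaptic partner of neuroligin, was led by Gene017967 at 58.9, and neuroligins by Gene010162 (Nlg3), a 405-base piece with a fly match only, at 70.3 CPM per kb.

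Both leading cadherin genes, Gene002222 at 309 and Gene004001 at 115 CPM per kb, matched Neural-cadherin, which guides axons to their target layers in the fly visual system. Gene002222 stood at 184, 306, 277, 221, 235, 242, 284, 387, 291 and 220.4 CPM. Gene004001 stood at 63.8, 30.8, 55.3, 42.8, 39.6, 53.1, 36.3, 39.7, 54.7 and 36.0 CPM. Their orders across libraries differed, with mature female 3 highest for Gene002222 and immature female 2 highest for Gene004001.

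Mature brains were first compared with immature brains over both sexes, to ask which of these genes differ with sexual maturation. No member was called, meaning that none had a Benjamini-Hochberg adjusted p under 0.05 over all 24930 genes tested. EdgeR's quasi-likelihood test called 0 of 203 tested members, as did its likelihood ratio test and DESeq2, while over all genes these called 0%, 2.59% and 2.98%. At an unadjusted p under 0.05 by the quasi-likelihood test, 4 members were higher and 2 lower in mature brains, against 6.02% and 9.1% of all genes. The lowest adjusted p of any member was 0.247, so the following fold changes are values and not calls. Each SE beside a log2 fold change was derived from the F statistic of the fit.

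**Figure D2:**
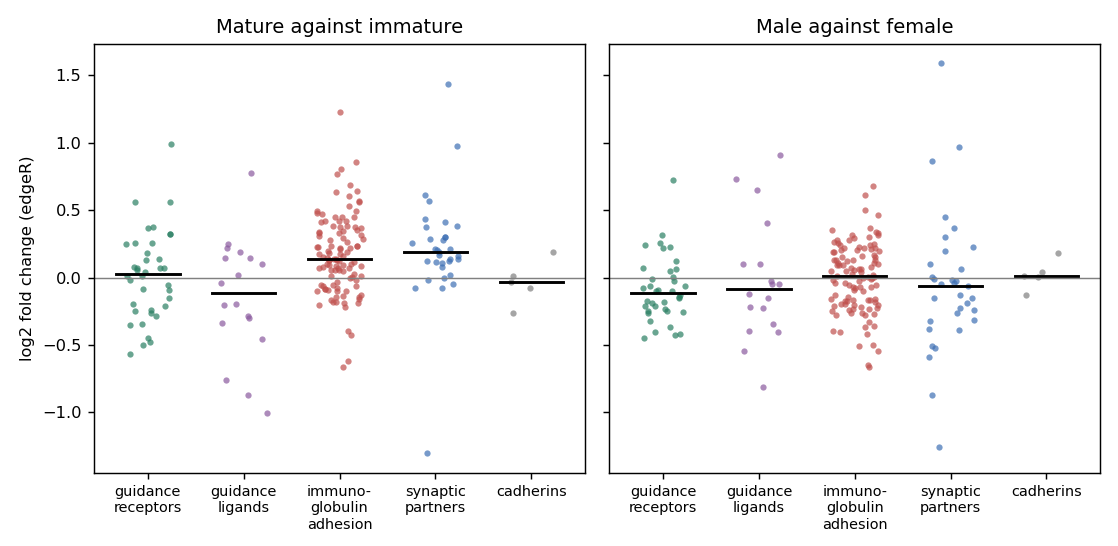
Log2 fold changes of the 203 tested members from edgeR, by role, for mature against immature brains over both sexes (left) and male against female brains over both stages (right). Each point is a gene and black bars are role medians, and on the left the bars for immunoglobulin adhesion (0.14) and synaptic partner genes (0.19) lie above 0, that of guidance ligands (-0.12) below, and no point was called.

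Gene011815, named robo1, had the lowest adjusted p. Gene011815 stood at 20.9, 16.0, 13.4, 24.4 and 8.65 CPM in the 5 immature libraries and 31.6, 41.5, 21.0, 36.4 and 35.5 in the 5 mature ones. Mature libraries were mostly the higher ones, with immature male 2 above mature female 3. The log2 fold change was 0.99 ± 0.31 (SE), with an adjusted p of 0.247 by the quasi-likelihood test, and over 17 alternative settings the adjusted p ran from 0.0615 to 0.738. Its best Swiss-Prot match was Hemicentin-1, an extracellular protein of many immunoglobulin domains, and not a Robo protein.

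Gene009984 (Nrx-1, a piece with laminin G domains of the presynaptic Neurexin) had 0.859, 1.20, 2.96, 1.34 and 1.05 CPM in the 5 immature libraries and 2.25, 2.77, 2.98, 3.26 and 1.97 in the 5 mature ones. The groups overlapped through immature male 1, and the log2 fold change was 0.97 ± 0.36 (SE, adjusted p = 0.283). Gene001172 (Dscam1) had 1.41, 4.05, 3.16, 2.01 and 1.64 CPM in the 5 immature libraries and 4.07, 4.61, 4.24, 4.57 and 4.72 in the 5 mature ones. For this gene every mature library was above every immature one, by a narrow margin over immature female 3, the log2 fold change being 0.86 ± 0.33 (SE, adjusted p = 0.288).

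The lower side was led by 2 longer Dscam1 genes and a Netrin. Gene009435 (Dscam1, 1647 bases) had 11.6, 14.4, 15.0, 11.03 and 14.1 CPM in the 5 immature libraries and 7.50, 10.5, 11.5, 9.32 and 5.81 in the 5 mature ones. Gene015484 (Dscam1, 1839 bases) had 74.2, 67.1, 83.9, 66.7 and 89.6 CPM in the 5 immature libraries and 44.3, 49.2, 60.2, 68.8 and 54.1 in the 5 mature ones. Mature libraries were mostly lower, overlapping the immature ones through mature female 3 for Gene009435 and mature male 2 for Gene015484, with log2 fold changes of -0.62 ± 0.23 (SE, adjusted p = 0.283) and -0.42 ± 0.17 (SE, adjusted p = 0.307). Gene007140 (NetB, a Netrin cue) had 6.87, 5.69, 6.32, 3.51 and 4.67 CPM in the 5 immature libraries and 3.97, 3.69, 3.97, 4.10 and 4.13 in the 5 mature ones, lying within the immature range, and its log2 change was -0.46 ± 0.22 (SE, adjusted p = 0.356).

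Taken as a list, the members leaned to higher values in mature brains: 137 of 203 (67.5%) had a positive fold change, against 48.8% of all genes tested, and the median log2 fold change was 0.13 against -0.02. The lean was not the same across roles. It was positive in 71 of 93 Dscam genes (median 0.15) and 27 of 33 synaptic partner genes (median 0.19), in 21 of 38 guidance receptors (median 0.03), and in 8 of 18 tested guidance ligands (median -0.12). These counts and medians describe the list, and whether the roles differ was not tested.

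A pair of libraries carried much of the lean. Without immature female 2, 115 of 203 members (56.7%) were positive with a median of 0.06, and 52.9% of all genes were. Without mature female 3, 112 of 202 (55.4%) were positive with a median of 0.03, against 46.5% of all genes with a median of -0.04. Without immature female 3, 154 of 203 (75.9%) were positive with a median of 0.29, against 50.9% of all genes. Leaving out immature female 2 and immature males 1 and 3 together, the libraries high in Hr4, gave 123 of 203 (60.6%) against 57.2% of all genes, and 51 of 93 Dscam genes (54.8%).

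Each library's position was summarised as the median deviation of the members from their own means on the log2 CPM scale. It lay at -0.34 in immature female 2 and 0.32 in mature female 3, and between -0.14 and 0.19 in the other 8. The SD of these medians within groups was 0.215, above the median fold change of the list. In immature female 2 the Dscam genes stood at -0.46 and the synaptic partner genes at -0.46, whereas guidance receptors stood at 0.06 and ligands at 0.07. In mature female 3 the Dscam genes and the synaptic partner genes were both at 0.4, receptors at 0.1 and ligands at 0.06. The neuronal markers held 0.32% of counts in immature female 2 and 0.732% in mature female 3, the latter the highest share of any library. Over the stages, neuronal shares ran from 0.32% to 0.52% in immature and from 0.305% to 0.732% in mature libraries. Muscle shares ran from 7.4% to 13.5% and from 10.9% to 16.6%. Among the 41 neuronal genes, 5 were higher and 0 lower at an unadjusted p under 0.05, with a median log2 fold change of 0.35, and among the 42 muscle genes 9 were higher and 2 lower, with a median of 0.33, against 6.02% higher and 9.1% lower over all genes. The part of these shares in the members' values was not tested.

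**Figure D3:**
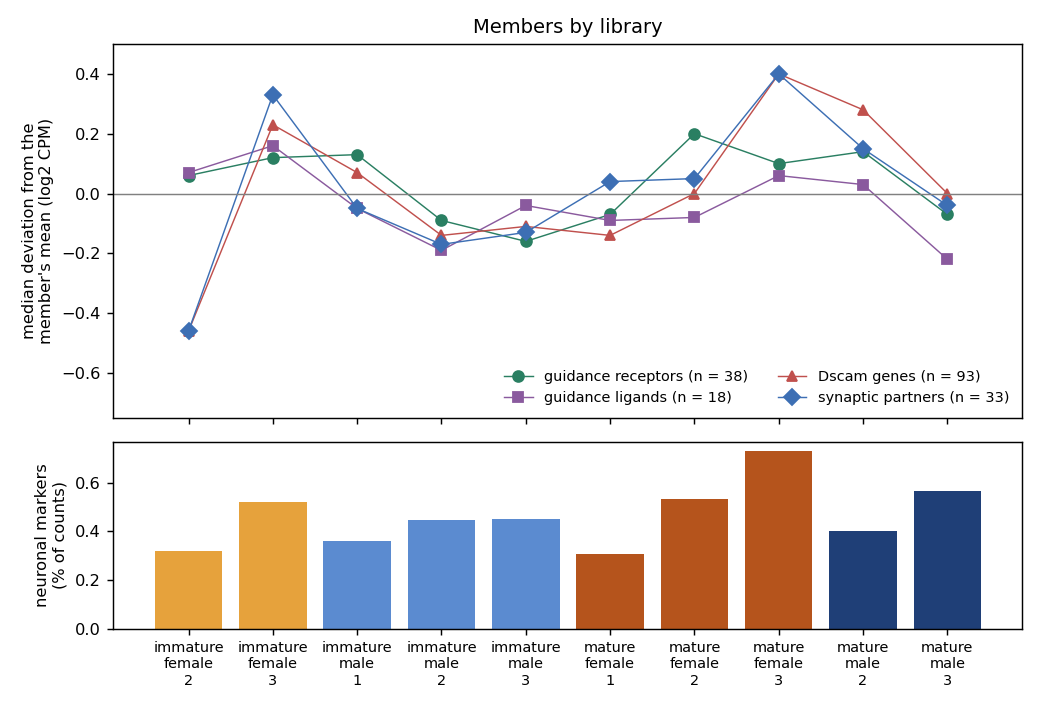
Upper panel: for each library, the median deviation of 4 groups of members from each member's mean over 10 libraries (log2 CPM). Lower panel: percent of each library's counts on 41 neuronal marker genes, with bars coloured by group. Dscam genes and synaptic partner genes run together, lowest in immature female 2 (both -0.46) and highest in mature female 3 (both 0.4), while receptors and ligands stay between -0.22 and 0.2.

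Within females, the comparison of mature with immature brains rested on 3 against 2 libraries. The quasi-likelihood test, the likelihood ratio test and DESeq2 each called 0 members, against 0%, 1.18% and 1.51% of all genes. Unadjusted p-values under 0.05 were found for 1 higher and 0 lower members, against 4.57% and 5.88% of all genes. The 1 member was Gene009984 (Nrx-1), already described, at 1.37 ± 0.53 (SE, adjusted p = 0.462). In females its groups did not overlap.

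Other members with low p-values in females were separated by stage without being called. They were picked by p-value, and the share of all genes so separated was not determined. Gene006741 (Nrg), a nearly complete Neuroglian of 3780 bases, had 109.7 and 163 CPM in immature and 244, 165 and 221 in mature females, with 192, 128 and 149 in immature and 183 and 183 in mature males. Its log2 fold change in females was 0.62 ± 0.29 (SE, adjusted p = 0.489). Gene009319 (Dscam1) had 1.17 and 1.53 CPM in immature and 2.04, 2.77 and 2.62 in mature females, with 2.57, 1.84 and 1.05 in immature and 2.24 and 2.07 in mature males, which gave a log2 change of 0.86 ± 0.45 (SE, adjusted p = 0.51). In both genes every mature female was above every immature female.

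On the lower side in females, Gene007140 (NetB) had 6.87 and 5.69 CPM in immature and at most 3.97 CPM in mature females, a log2 change of -0.69 ± 0.31 (SE, adjusted p = 0.483). Gene015484 (Dscam1) was at -0.46 ± 0.24 (SE, adjusted p = 0.51). Gene004234 (sli, a short gene whose best match is a Slit homolog) had 26.5 and 64.0 CPM in immature and 11.8, 25.2 and 5.15 in mature females, with 16.99, 96.4 and 16.9 in immature and 51.8 and 18.9 in mature males. Its change in females, -1.72 ± 0.91 (SE, adjusted p = 0.514), had a wide error, and its values ran from 16.9 to 96.4 CPM among immature males.

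The list's median in females turned with single libraries. It was 0.16 with 123 of 203 members positive (60.6%, against 48.7% of all genes). Without immature female 2 it was -0.07 with 88 positive (43.3%, against 53.5% of all genes). Without immature female 3 it was 0.47 with 150 positive (73.9%, against 51.5% of all genes). Without mature female 3 it was -0.03, against -0.07 for all genes. In the same females the neuronal markers had a median log2 fold change of 0.54 and the muscle markers 0.65, and their part in these values was not tested. For Dscam genes, 66 of 93 were positive with all libraries, 40 of 93 without immature female 2 and 84 of 93 without immature female 3.

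Within males, 2 mature were compared with 3 immature libraries. Here too the quasi-likelihood test, the likelihood ratio test and DESeq2 called 0 members, against 0.00802%, 0.517% and 1.02% of all genes. Of the members, 3 were higher and 1 lower at an unadjusted p under 0.05, against 2.78% and 4.67% of all genes. The positive share was 62.1% (126 of 203) against 48.9%, with a median of 0.08. It ranged from 54.2% without mature male 2 (49.2% of all genes) to 72.9% without the 3 libraries high in Hr4 (54.4% of all genes).

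Named members in males, picked as those with the lowest p-values, mostly had separate groups. How often the groups were separate over all genes was not determined. Gene011815 (robo1) was at 1.22 ± 0.43 (SE, adjusted p = 0.603), and both mature males were above all 3 immature males. Gene015572 (Nlg3) was at 0.65 ± 0.24 (SE, adjusted p = 0.603) and is described with the sexes. Gene001172 (Dscam1) was at 1.05 ± 0.46 (SE, adjusted p = 0.67). Among lower members, Gene009435 (Dscam1) was at -0.82 ± 0.33 (SE, adjusted p = 0.629). Gene000957 (fra, a Netrin receptor piece that matched Neogenin) had 5.33, 5.85 and 4.09 CPM in immature and 3.36 and 3.15 in mature males, with 5.46 and 3.72 in immature and 3.86, 4.00 and 5.33 in mature females, which gave -0.64 ± 0.33 in males (SE, adjusted p = 0.739). Its female groups overlapped. Gene023465 (Ten-m) had the most negative value, -3.06 ± 1.85 (SE, adjusted p = 0.791), which rested on immature male 1, the only male with more than 1 CPM.

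Males were then compared with females over both stages, the comparison that asks for sex differences in the brain. The quasi-likelihood test and the likelihood ratio test called 0 of 203 members, against 0.0401% and 0.377% of all genes. DESeq2 called 2 members, against 0.493% of all genes: Gene015572 (Nlg3), higher in males, and Gene006595 (Ten-m), lower in males. These were also the only 2 members with an unadjusted p under 0.05 by the quasi-likelihood test, 1 in each direction, against 2.27% of all genes higher and 2.18% lower in males. Over the list, 89 of 203 members were positive (43.8%, against 49.1%), with a median of -0.04. The list's median was -0.13 without immature female 2 (0.03 for all genes) and 0.11 without immature female 3 (0.02 for all genes). By role, 11 of 38 guidance receptors (median -0.11), 6 of 18 tested ligands (-0.09) and 11 of 33 synaptic partner genes (-0.06) were positive. So were 57 of 109 immunoglobulin adhesion genes (median 0.01) and 4 of 5 cadherins (0.02). Whether the roles differ between the sexes was not tested.

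Gene015572 is a nearly complete neuroligin gene of 2532 bases with the carboxylesterase domain, named Nlg3, with 44.1% identity to the fly protein and the best Swiss-Prot match Neuroligin-4. Neuroligins sit on the receiving side of synapses and bind neurexins. It stood at 19.5, 21.5, 25.0, 19.7 and 24.7 CPM in the 5 female libraries and 35.2, 27.7, 32.1, 43.3 and 56.2 in the 5 male ones. Every male was above every female, in a gene picked by its p-value. Immature males averaged 31.7 ± 3.73 CPM (SD, n = 3) against 20.5 ± 1.43 (SD, n = 2) in immature females, and mature males 49.7 ± 9.15 (SD, n = 2) against 23.1 ± 2.99 (SD, n = 3) in mature females.

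Its log2 fold change, male against female, was 0.86 ± 0.17 (SE) over both stages. Its quasi-likelihood adjusted p was 0.45. With the likelihood ratio test it was 0.104, with DESeq2 0.00778, and over 17 alternative settings it ran from 0.00778 to 0.996, with DESeq2 alone under 0.05. Leaving out each library in turn kept the fold change between 0.76 and 0.96. The other 5 Nlg3 genes did not share this difference by value, with log2 fold changes between -0.51 (Gene001045) and 0.10 (Gene011283), and the 5 Nlg4 genes lay between -0.38 and 0.31. With counts summed over the 6 Nlg3 genes, Gene015572 among them, the change was 0.05 ± 0.20 (SE) and was not called.

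Gene006595 is a 966-base open reading frame named Ten-m, but no protein match or domain is listed for it, and it overlaps a shorter reading frame on its contig. It stood at 209, 339, 315, 338 and 467 CPM in the 5 female libraries and 155, 165, 176, 184 and 185 in the 5 male ones. Every female was above every male, and the male libraries lay close together. The log2 fold change was -0.87 ± 0.20 (SE) over both stages, and the quasi-likelihood adjusted p 0.754. With the likelihood ratio test it was 0.147 and with DESeq2 0.0325. Over 17 settings its adjusted p ran from 0.0325 to 1, with DESeq2 alone under 0.05, and without single libraries the change lay between -1.04 and -0.67.

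The other Ten-m genes gave no such separation. Of 11 others, 9 had negative values, but the errors were wide relative to them. Gene006402, with the best match Teneurin-2, differed by 0.06 ± 0.14 (SE), Gene010936 by -0.23 ± 0.15 (SE) and Gene011020 by -0.18 ± 0.26 (SE), on the log2 scale. With counts summed over the 12 Ten-m genes, Gene006595 among them, the change was -0.37 ± 0.16 (SE) and was not called.

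**Figure D4:**
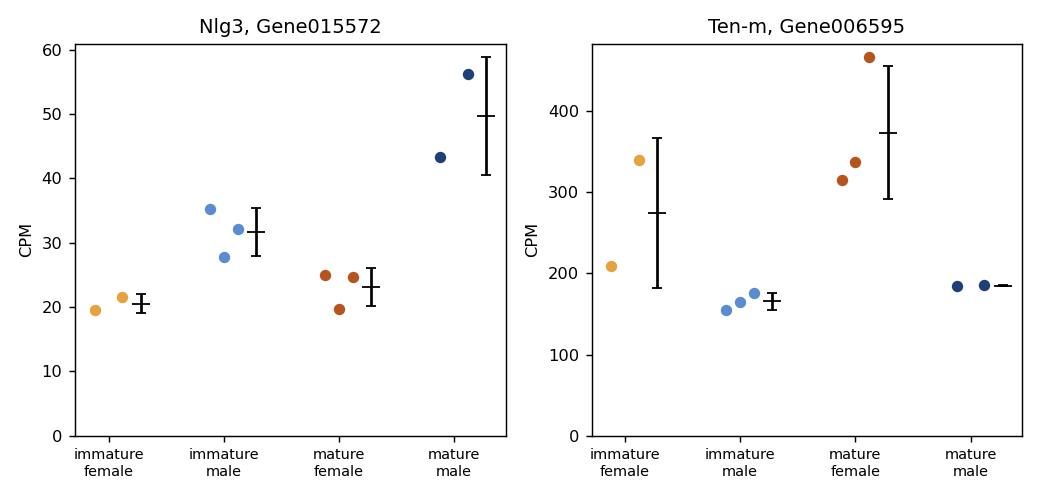
CPM of Gene015572 (Nlg3) and Gene006595 (Ten-m) in each library, by group, from 0. Points are libraries, and the bar beside them is the group mean with its SD (n = 2 or 3): males of both stages lie above females for Nlg3 (27.7 to 56.2 against 19.5 to 25.0 CPM) and below them for Ten-m (155 to 185 against 209 to 467 CPM).

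The remaining members with the lowest p-values had overlapping sexes. Gene001314 (Eph, a kinase-domain piece of 300 bases whose best Swiss-Prot match was the kinase SYK) had 1.02, 1.97, 1.39, 0.307 and 0.812 CPM in the 5 female libraries and 1.58, 2.01, 1.75, 1.68 and 2.46 in the 5 male ones, which gave a log2 value of 0.72 ± 0.39 (SE, adjusted p = 1). Gene019050 (Dscam1) had 3.82, 3.06, 4.61, 3.69 and 2.80 CPM in the 5 female libraries and 5.14, 3.01, 5.26, 6.06 and 4.82 in the 5 male ones, at 0.47 ± 0.26 (SE, adjusted p = 1). On the female side, Gene008937, the longest and best supported sli gene (3297 bases, best match Protein slit, with leucine-rich repeats and EGF domains), had 89.4, 139, 115, 139.9 and 168 CPM in the 5 female libraries and 93.4, 114, 93.6, 94.6 and 91.5 in the 5 male ones. Its change was -0.40 ± 0.19 (SE, adjusted p = 1), and immature female 2 lay below the male values. Gene011363 (Ephrin, the membrane-held ligand of Eph) had 4.92, 4.05, 2.89, 1.23 and 5.15 CPM in the 5 female libraries and 1.78, 2.01, 0.935, 3.92 and 2.17 in the 5 male ones, at -0.81 ± 0.40 (SE, adjusted p = 1).

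In immature brains, 3 males against 2 females, the quasi-likelihood test, the likelihood ratio test and DESeq2 called 0 members, against 0.0321%, 0.566% and 0.939% of all genes. At an unadjusted p under 0.05, 1 member was higher and 2 lower in males, against 3.21% and 2.8% of all genes. Gene015572 (Nlg3) was the higher one, at 0.63 ± 0.24 (SE, adjusted p = 0.758). The lower ones were Gene011363 (Ephrin), at -1.53 ± 0.56 (SE, adjusted p = 0.737), and Gene006595 (Ten-m), at -0.73 ± 0.27 (SE, adjusted p = 0.74). All 3, picked by p-value, had groups that did not overlap, and the share of all genes without overlap was not determined.

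The next lowest p-values at this stage did not reach an unadjusted 0.05. Gene022177 (fra, immunoglobulin domain, best match Neogenin) had 1.33, 0.875, 1.93, 2.15 and 1.35 CPM in the 5 female libraries and 2.17, 2.01, 1.87, 1.59 and 1.18 in the 5 male ones, higher in every immature male than in either immature female at 0.85 ± 0.42 (SE, adjusted p = 0.882). Gene018317 (unc-5, with the death domain of Unc-5 receptors) had 7.34, 9.29, 6.32, 11.1 and 7.04 CPM in the 5 female libraries and 4.74, 6.85, 4.56, 7.83 and 8.07 in the 5 male ones, lower in every immature male at -0.63 ± 0.34 (SE, adjusted p = 0.905). In mature brains the sexes overlapped for both. Gene023465 (Ten-m) had the most positive value, 4.02 ± 2.02 (SE, adjusted p = 0.882), which again rested on immature male 1. The list's median between the sexes in immature brains was -0.02, but -0.24 without immature female 2 (0.06 for all genes) and 0.28 without immature female 3 (0.05 for all genes).

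In mature brains, 2 males against 3 females, the quasi-likelihood test and the likelihood ratio test called 0 members, against 0.0401% and 0.181% of all genes, and DESeq2 called 1, Gene015572 (Nlg3), against 0.217%. At an unadjusted p under 0.05, 1 member was higher and 1 lower, against 1.5% and 0.967% of all genes. Gene015572 was at 1.10 ± 0.24 (SE, adjusted p = 1) by the quasi-likelihood test. Its DESeq2 adjusted p was 0.0453, the lowest of 18 settings, which ran to 1. Gene006595 (Ten-m) was at -1.02 ± 0.28 (SE, adjusted p = 1).

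The other members with the lowest p-values in mature brains are given as values only. Gene008937 (sli) was lower in both mature males than in all mature females, at -0.60 ± 0.27 (SE, adjusted p = 1), and Gene009867 (robo3, best match Roundabout homolog 2) was too, at -1.03 ± 0.55 (SE, adjusted p = 1) on 0.859, 1.86, 1.58, 2.01, 1.05, 2.04, 4.00, 2.26, 0.932 and 1.67 CPM. Gene001314 (Eph by name, best match the kinase SYK) was higher in both mature males, at 1.18 ± 0.55 (SE, adjusted p = 1). Its lowest value, 0.307 CPM, was in mature female 2, the library with the fewest counts. Leaving out each library in turn kept its change between 0.88 and 1.67. Gene014332 (sli, best match Leucine-rich repeat neuronal protein 2) had a positive value of 2.42 ± 1.16 (SE, adjusted p = 1) that rested on mature male 2 and turned to -1.26 without it.

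Whether the difference between stages itself differed between males and females was tested by the interaction of stage and sex. The quasi-likelihood test, the likelihood ratio test and DESeq2 called 0 members, against 0%, 0.0562% and 0.124% of all genes. At an unadjusted p under 0.05 there were 0 members in either direction, against 1.67% and 1.53% of all genes. The list had 102 of 203 positive values (50.2%, against 47.1% of all genes) and a median of 0. Without immature female 2 the list's median was 0.24, and without immature female 3 it was -0.34, against -0.07 for all genes each time. For Gene015572 (Nlg3), the changes of males and females with stage were not shown to differ.

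Members were steadier than the average gene within groups. The SD of log2 CPM within groups had a median of 0.418 over the members and 0.479 over all genes tested, and it exceeded 1 in 8 members (3.94%) against 13.4% of all genes. The 8 were 3 of the 5 sli genes, 2 Ten-m genes, 2 Ten-a genes and 1 Lar gene.

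Gene023243 (Ten-m by name, best Swiss-Prot match Tenascin-X) varied most, with 0.312, 37.2, 8.49, 2.84, 0.117, 33.7, 34.1, 4.51, 1.31 and 41.0 CPM. It was lowest in immature female 2 and immature male 3 and above 30 CPM in 4 libraries of 3 groups, with 1 to 417 counts. Gene023465 (Ten-m by name, best match Protocadherin Fat 3) had 0.078, 0.328, 9.48, 0.501, 0.234, 0.214, 0, 4.24, 0.466 and 0.295 CPM. It had 48 and 47 counts in immature male 1 and mature female 3 and at most 5 in every other library.

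The sli genes with the widest spread were not the same as the well supported sli gene. Gene013648 (best match Leucine-rich repeat and fibronectin type-III domain-containing protein 5) had 3.67, 36.7, 5.73, 52.6, 2.10, 3.00, 15.4, 2.62, 31.0 and 5.51 CPM. Gene004234 had, in the same order, 26.5, 64.0, 16.99, 96.4, 16.9, 11.8, 25.2, 5.15, 51.8 and 18.9 CPM. Both were high in immature female 3, immature male 2 and mature male 2 and lower in most others, without following stage or sex. Among immature libraries, immature female 3 and immature male 2 were the ones low in Hr4. The other mature libraries, also low in Hr4, had lower values than mature male 2. A relation to Hr4 was not tested. Gene014332 had 5.93, 10.5, 2.17, 11.2, 2.92, 8.36, 5.23, 1.35, 50.9 and 2.07 CPM, with mature male 2 more than 4 times above any other library.

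The remaining members of wide spread were low. Gene023784 (Ten-a) had 0.312, 0.765, 1.19, 3.68, 0, 0.322, 1.23, 0.181, 0.466 and 0.0984 CPM, and Gene023785 (Ten-a) had 0, 0.328, 0.198, 1.84, 0.351, 0.536, 0.307, 0.0903, 1.03 and 0.0984 CPM, each with 0 counts in 1 library and its highest value in immature male 2. Gene021743 (Lar, best match Neural cell adhesion molecule L1) had 1.33, 6.12, 1.38, 8.52, 1.17, 2.36, 3.07, 1.44, 3.36 and 1.48 CPM. It was again highest in immature male 2 and immature female 3, the immature libraries low in Hr4. The mature libraries, also low in Hr4, had only 1.44 to 3.36 CPM of Gene021743. A relation to Hr4 was not tested for this gene either. Only Gene004234 of these 8 had a Swiss-Prot match of its own family.

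**Figure D5:**
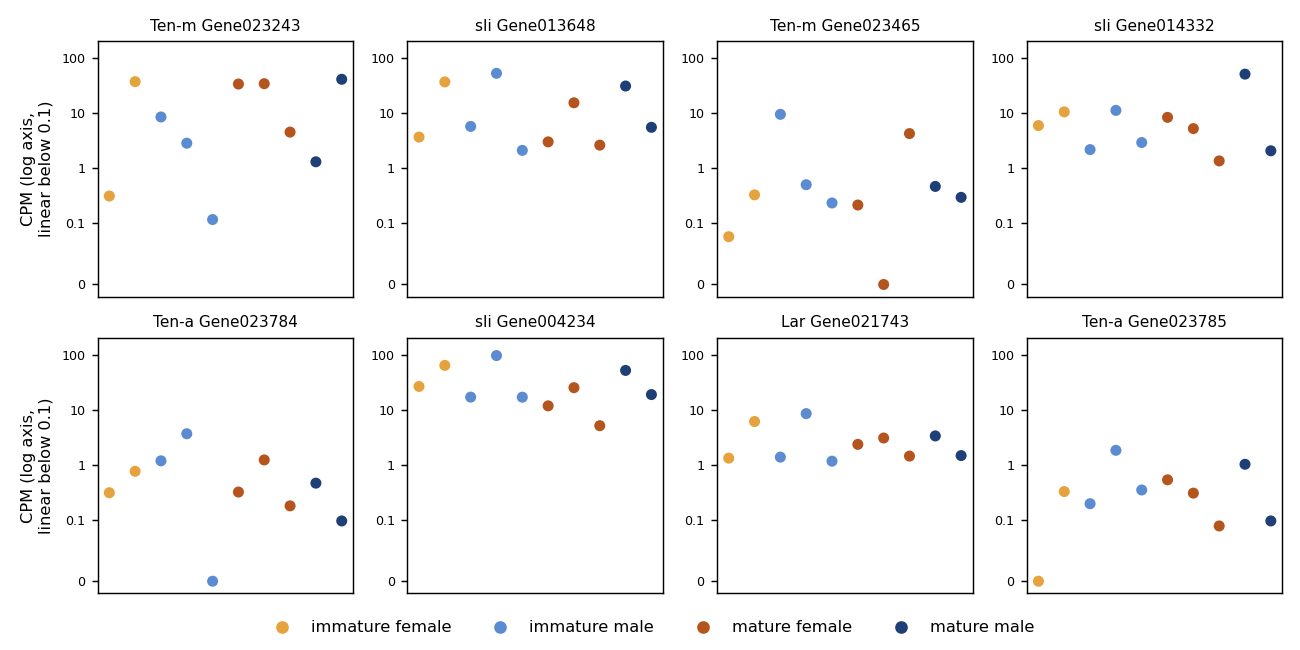
CPM of the 8 members with a within-group SD of log2 CPM above 1, one panel per gene, with the 10 libraries in the order given in the text and coloured by group (log axis, linear below 0.1). Points of the same colour are spread over a 10-fold range or more in several panels, as in Gene023243, which runs from 0.117 to 41.0 CPM.

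Other genes of guidance and adhesion, 224 genes under 60 symbols such as beat, dpr, integrin and cytoskeletal regulators, were counted by the same naming rule. The quasi-likelihood test called 0 of the 222 tested in every comparison. The likelihood ratio test called 1, chp, lower in mature than in immature females, against 1.18% of all genes. It also called 1, Tollo, lower in males than in females over both stages, against 0.377% of all genes. DESeq2 called these, against 1.51% and 0.493% of all genes, and if, higher in mature brains over both sexes, against 2.98%. At an unadjusted p under 0.05, 9 were higher and 15 lower in mature brains, against 6.02% and 9.1% of all genes. Between the sexes 1 was higher and 13 lower in males, against 2.27% and 2.18% of all genes. The median log2 fold changes of this list were 0.07 and -0.06, with 58.6% and 38.3% positive, against 48.8% and 49.1% of all genes.

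The leading genes of this list were picked by p-value, and none was called by the quasi-likelihood test. Gene000947 (Tollo, a Toll-like receptor with leucine-rich repeats) had 5.23, 2.95, 2.89, 3.69 and 3.52 CPM in the 5 female libraries and 1.98, 1.17, 1.40, 1.21 and 1.28 in the 5 male ones, at -1.43 ± 0.28 (SE, adjusted p = 0.441). Every female was above every male, in a gene picked by its p-value, and the share of all genes so separated was not determined. A second Tollo gene, Gene000938, lay at -0.96 ± 0.22 (SE, adjusted p = 0.795). Gene013941 (mew, an integrin alpha chain) was at 1.15 ± 0.48 (SE, adjusted p = 1) with 22.7, 22.6, 21.9, 19.1 and 39.2 CPM in the 5 female libraries and 23.3, 18.2, 34.1, 208 and 30.2 in the 5 male ones, where mature male 2 alone stood out. On the higher side, Gene005954 (beat-IIIc) was next at 0.47 ± 0.25 (SE, adjusted p = 1).

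With stage, Gene007863 (if, the integrin alpha-PS2 of muscle attachment in the fly) had 25.8, 79.3, 133, 65.8 and 53.3 CPM in the 5 immature libraries and 325, 127, 168, 212 and 121 in the 5 mature ones, at 1.48 ± 0.43 (SE, adjusted p = 0.233). Its highest value was in mature female 1, which had the highest muscle share (16.6%), and its lowest in immature female 2, which had the lowest (7.4%). Between these ends the order differed. Immature male 1 (133 CPM) and mature male 2 (212 CPM) both had a muscle share of 10.9%. Immature male 2 (65.8 CPM) and mature female 3 (168 CPM) both had 13.5%. The part of muscle RNA in this value was not tested. The guanine nucleotide exchange factor gene Gene019254 (trio), which acts in axon growth in the fly, was at 0.79 ± 0.25 (SE, adjusted p = 0.251). On the lower side, Gene010734 (mew) was at -1.06 ± 0.30 (SE, adjusted p = 0.229) and Gene004668 (RhoGEF64C) at -0.97 ± 0.26 (SE, adjusted p = 0.222). Gene022451 (chp, Chaoptin, an adhesion protein of fly photoreceptors) had 5.78 and 9.62 CPM in immature and 1.18, 1.23 and 0.181 in mature females, with 1.78, 0.668 and 1.75 in immature and 0.466 and 1.77 in mature males. Its change in females was -3.26 ± 0.78 (SE, adjusted p = 0.336). Every mature female was below both immature females, again in a gene picked by its p-value.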

How the data were processed

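Read counts per gene for 10 spider brains and an annotation table, as the authors deposited them, were used. The replicate 1 libraries of immature females and mature males, left out by the authors for low coverage, were not analysed here. They assembled reads per library with Trinity, merged assemblies with CAP3, predicted coding sequences with TransDecoder, annotated them with Trinotate, clustered genes by BLASTn and counted reads with BWA-MEM. The submitters' processing notes name Trimmomatic 0.32 and BWA 0.6.1-r104. How reads matching several genes were treated is not given in the sources used here, so near-identical members may share reads. Annotation rows shifted by 1 column were realigned before reading.

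Counts were tested with edgeR 4.0.16 and limma 3.58.1 under R 4.3.3, fitting 4 group means over all 10 libraries, TMM scaling, filterByExpr with a minimum count of 10, the quasi-likelihood F test and Benjamini-Hochberg adjustment over 24930 genes at 0.05. The fit was tested on simulated data, with a lower dispersion than the 0.209 of these data and larger changes than most described here. That test therefore does not show which differences could be detected among the members. SE is the absolute log2 fold change divided by the square root of F. The spread was taken between single spiders. Alternatives were the likelihood ratio test (the authors' test), DESeq2 1.42.0, RLE size factors, other filters, a replicate block, counts summed by symbol, members without overlapping coding sequence, only the 2 groups compared, and leaving out each library. Members of matched family, members of at least 600 bases and the joint removal of 3 libraries were alternatives chosen after seeing the data.

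Named members were, per comparison of stage or sex, the 3 lowest p-values in each direction, and per role the 2 highest levels per kilobase. Separate groups are thus described for genes picked by p-value, which favours separation. The share of all genes with separate groups was not determined. Members with a within-group SD over 1, relatives of named genes, members without a protein match, and the leading neurexin and neuroligin were named after their values were seen. In the list of other guidance genes, the 2 lowest p-values in each direction were eligible, and some are given by count only. Members and lists were chosen with earlier results of these data known. No sequences were used here.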

Additional observations from a re-analysis of the deposited data

How the results depend on the processing

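No member was called in any of the 7 comparisons by the quasi-likelihood test under any alternative, and only DESeq2 called members, 2 between the sexes over both stages (Gene015572, log2 fold change 0.85, and Gene006595, -0.88) and 1 between mature males and females (Gene015572, 1.08). The cause was not tested. The median log2 fold change of the members depended on the 2 immature females. Leaving out each library in turn, it ran from -0.069 to 0.475 for stage in females, from -0.24 to 0.28 for sex in immature brains, and from -0.34 to 0.24 for the interaction, the ends being set by immature females 2 and 3. Without the 3 immature libraries high in Hr4 these medians were -0.068, -0.303 and 0.278. Gene014332 (sli) ran from -1.263 without mature male 2 to 3.357 without mature male 3 between mature males and females. With the replicate number of the labels as a replicate block, 0 members were called in every comparison, the median for stage in both sexes was 0.13, and 31 genes in all were called for stage against 0 without it. Nothing in the labels ties the numbers to shared animals or batches. Over all genes, the deviations of same-numbered libraries correlated between 0.093 and 0.302 outside the immature females (at most 0.069 for different numbers). With the immature females these correlations lay between -0.361 and 0.014. Over the members, same-numbered pairs ran from 0 to 0.401 outside the immature females (at most 0.247 for different numbers). With the immature females they ran from -0.432 to 0.13. In groups of 2 libraries the deviations mirror each other, so pairs with such groups are not independent. Not every pair was positive, and the libraries were not treated as paired. Groups held 2 or 3 spiders, and the size of difference that this could detect among the members was not determined. Up to 69 of 204 members had under 10 counts in a library (mature female 2), where depth limits the values.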
